A study of Homo sapiens with 15 samples.

Results

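The 29 genes described here encode enzymes and proteins that make, import, move, store or export cholesterol. They were listed by name with earlier results of these data known, and all 29 were found among the 17272 genes of the expression table. Of these, 20 encode enzymes of synthesis, 1 is a gene of sterol feedback, 3 serve uptake and lysosomal export, 3 serve ester storage and transfer between membranes, and 2 are efflux pumps. Expression was measured by RNA sequencing in LNCaP, an androgen-sensitive human prostate cancer cell line whose cells were deprived of steroids in charcoal-stripped serum before treatment. The comparison asks what darolutamide, an inhibitor of the androgen receptor, changes in cells driven by androgen. All cells received the synthetic androgen R1881 at 1 nM and were harvested after 22 h. In 5 libraries darolutamide was present as well at 2 µM, and 10 libraries had R1881 with the solvent DMSO alone. No library without R1881 was analysed here, so the values compare blocked with unblocked androgen signalling in 1 cell line.

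Cholesterol is built from acetyl-CoA through mevalonate, which is turned into isoprenoid units that are joined to squalene. Squalene is closed into lanosterol, the first sterol, and a chain of reductions, demethylations and isomerizations in the endoplasmic reticulum then gives cholesterol. When sterols are scarce, SREBP transcription factors leave the endoplasmic reticulum and switch on the genes of synthesis and uptake. When sterols are abundant, INSIG proteins hold SREBP back and oxysterols activate the LXR receptors, which switch on the efflux pumps. Androgen is known to raise lipid and sterol synthesis in LNCaP cells.

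The libraries held 21870398 to 25317567 reads with darolutamide and 15830745 to 24316740 reads with R1881 alone. Values are given as CPM, the name the authors gave to their scaled counts. The columns summed to 1005403 to 1031224 with darolutamide and 1053406 to 1078567 with R1881 and the scaling behind this is not given in the sources used here. The labels number the libraries in 3 runs, 86 to 90 for the combination and 71 to 75 and 51 to 55 for R1881, so no run holds both treatments, and what the runs and what the treatments contribute cannot be told apart. The study's methods call the libraries biological replicates but do not say whether each came from a separate culture. The p-values therefore reflect only how these libraries vary, which may be technical. All 8 androgen-induced control genes were lower with darolutamide (summed expression 2487 to 2716 CPM, against 8368 to 9072 CPM with R1881). All 8 luminal prostate markers were in the table, among them KRT8 and KRT18, which were lower, and FOLH1 and EPCAM, which were higher. Of 6 fibroblast markers 3 were in the table and were higher with darolutamide, with a summed expression of 13.5 to 30.6 CPM, against 6.36 to 10.5 CPM. Endothelial VWF was also higher, basal KRT14 was lower at 0.528 to 0.878 CPM, against 0.706 to 1.44 CPM, and none of 4 leukocyte markers was in the table. The share of reads from mitochondrially encoded genes was 3.12 to 3.94% with darolutamide and 2.65 to 3.02% with R1881. The part of these shifts in the results below was not tested. The samples are bulk RNA of 1 cell line, so fewer cells holding a transcript cannot be told apart from less of it per cell.

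Most synthesis genes were lower and the 2 efflux genes among the 29 were higher in the cells given darolutamide. Of the 29 genes, 20 fell, 3 rose and 6 did not pass limma's test across all genes at an adjusted p under 0.05. Over all genes measured, 23.7% of genes were lower and 22.8% were higher, so rises were no more frequent among the 29 than among all genes. The median log2 fold change, darolutamide over R1881, was -0.38 for the 29 genes and 0.00 for all genes tested, whose quartiles were -0.18 and 0.19. In 15 of the 29 genes every darolutamide library lay below every R1881 library, which held for 12.6% of all genes. In 2 of them every darolutamide library lay above, which held for 10.8%. Among the 20 enzymes of synthesis alone, 15 fell, TM7SF2 rose and 4 did not pass, with a median of -0.45. Summed over these 20 genes, expression was 1556 to 1698 CPM in the darolutamide libraries and 2287 to 2393 CPM in the R1881 libraries. The sum was therefore 31.4% lower on average, 1610 ± 55.4 CPM (SD, n = 5) against 2347 ± 32.9 CPM (SD, n = 10), and the groups did not overlap. The R1881 runs lay close together, at 2341 to 2393 CPM for libraries 71 to 75 and 2287 to 2371 CPM for libraries 51 to 55. Set against libraries 71 to 75 alone, 19 of the 29 genes were lower and 2 were higher, and against 51 to 55 alone 18 were lower and 3 were higher. Of all 17272 genes, 3300 were lower and 3363 higher against 71 to 75, and 3873 and 3350 against 51 to 55.

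**Figure D1:**
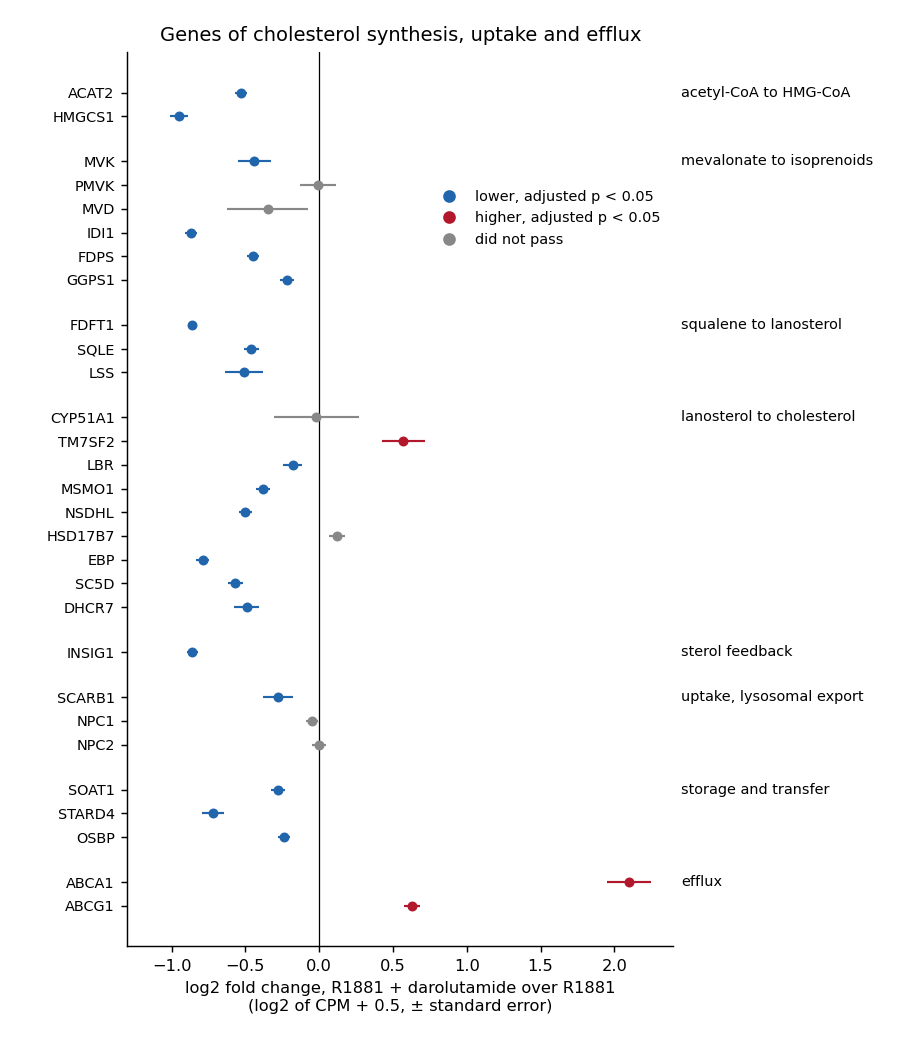
Log2 fold change of each of the 29 genes (points, with 1 standard error) in pathway order from top to bottom, R1881 with darolutamide over R1881, on log2(CPM + 0.5). Points for synthesis lie mostly left of 0, from HMGCS1 at -0.95 to TM7SF2 at 0.57, and both efflux genes lie to the right, with ABCA1 at 2.10.

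ACAT2 and HMGCS1, which lead from acetyl-CoA to HMG-CoA, were lower in every darolutamide library. ACAT2, the cytosolic thiolase that joins acetyl-CoA units (chromosome 6, 159762045 to 159779112 on GRCh38, GENCODE version 44), was 72.4, 70.4, 74.2, 65.9 and 72.8 CPM with darolutamide, against 95.7 to 109.9 CPM (median 104) with R1881. Its log2 fold change was -0.53 (standard error 0.038, adjusted p = 2.18e-09 from limma). HMGCS1, the cytosolic synthase of HMG-CoA (chromosome 5, 43287470 to 43313512), was 135, 145, 146, 117 and 132 CPM with darolutamide, against 225 to 291 CPM (median 257) with R1881. At -0.95 (standard error 0.058, adjusted p = 2.7e-10 from limma) it fell the most of the 29 genes. Both genes were clear of any overlap between the groups, and the lowest value of each within the darolutamide group was that of replicate 4. On the opposite strand, annotated genes cover 37.7% of the merged exon bases of HMGCS1 and 22.2% of those of ACAT2. The kit keeps the strand, but the strand setting of the counting is not given in the sources used here.

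From mevalonate to the isoprenoids, 4 of 6 genes fell. IDI1, the isomerase that interconverts the isoprene units (chromosome 10, 1039152 to 1049119), was 113, 119, 119, 102 and 114 CPM with darolutamide, against 190.3 to 221 CPM (median 208) with R1881. The log2 fold change was -0.87 (standard error 0.043, adjusted p = 1.13e-11 from limma), and all 5 values lay far below the R1881 range. FDPS, the synthase of farnesyl diphosphate, from which sterols and non-sterol isoprenoids branch, averaged 103 ± 5.69 CPM with darolutamide and 141 ± 6.12 CPM with R1881 (SD, n = 5 and 10), a log2 fold change of -0.45. GGPS1, which extends farnesyl diphosphate for protein prenylation, fell by 0.22 on the log2 scale, again without overlap (74.0 to 90.0 CPM, against 92.5 to 108 CPM). A second annotated gene on the same strand covers 37.3% of the merged exon bases of GGPS1, and 8 pseudogenes are named after FDPS and 3 after IDI1, so reads of these genes may be shared with their copies.

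The kinases and the decarboxylase between mevalonate and isopentenyl diphosphate were less clear. MVK, the mevalonate kinase, was 16.0, 15.3, 14.5, 24.9 and 18.7 CPM with darolutamide, against 20.1 to 31.1 CPM (median 23.9) with R1881. It fell by 0.44 on the log2 scale (adjusted p = 0.00374 from limma), with replicate 4 inside the R1881 range. PMVK, the next kinase, was 25.2 to 51.3 CPM with darolutamide and 29.2 to 43.4 CPM with R1881 and did not pass (log2 fold change -0.01, adjusted p = 0.974 from limma). MVD, the decarboxylase, was 7.42, 7.56, 4.53, 24.0 and 7.09 CPM with darolutamide, against 8.69 to 20.4 CPM (median 10.0) with R1881. Replicate 4 lay above the whole R1881 range and the other 4 darolutamide values lay under it, and MVD did not pass (log2 fold change -0.35, adjusted p = 0.317 from limma). Without replicate 4 it was lower at -0.71 (adjusted p = 0.00339 from limma).

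From the branch point into sterols to lanosterol all 3 genes fell, LSS with overlap between the groups. FDFT1, squalene synthase (chromosome 8, 11795573 to 11839395), had the smallest p of the 29 genes. It was 274, 271, 277, 253 and 272 CPM with darolutamide, against 475 to 516 CPM (median 487) with R1881. It fell by 0.86 on the log2 scale (standard error 0.029, adjusted p = 4.88e-14 from limma). The spread within either group was small beside the gap between them. Per kilobase of its canonical transcript, FDFT1 had 133 CPM with darolutamide and 240.0 CPM with R1881, the highest level per length of the 29 genes in either group. SQLE, the epoxidase that oxidizes squalene, was 46.9 to 53.7 CPM with darolutamide, against 62.7 to 77.3 CPM with R1881, and fell by 0.46 on the log2 scale (adjusted p = 5.08e-07 from limma). LSS, the cyclase that forms lanosterol, was 81.0, 83.3, 65.0, 135 and 85.4 CPM with darolutamide, against 106 to 161 CPM (median 122) with R1881. It fell by 0.51 on the log2 scale (adjusted p = 0.00294 from limma), with replicate 4 the only darolutamide library inside the R1881 range. Against R1881 libraries 51 to 55 alone its call was lost (-0.41, adjusted p = 0.0503 from limma).

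**Figure D2:**
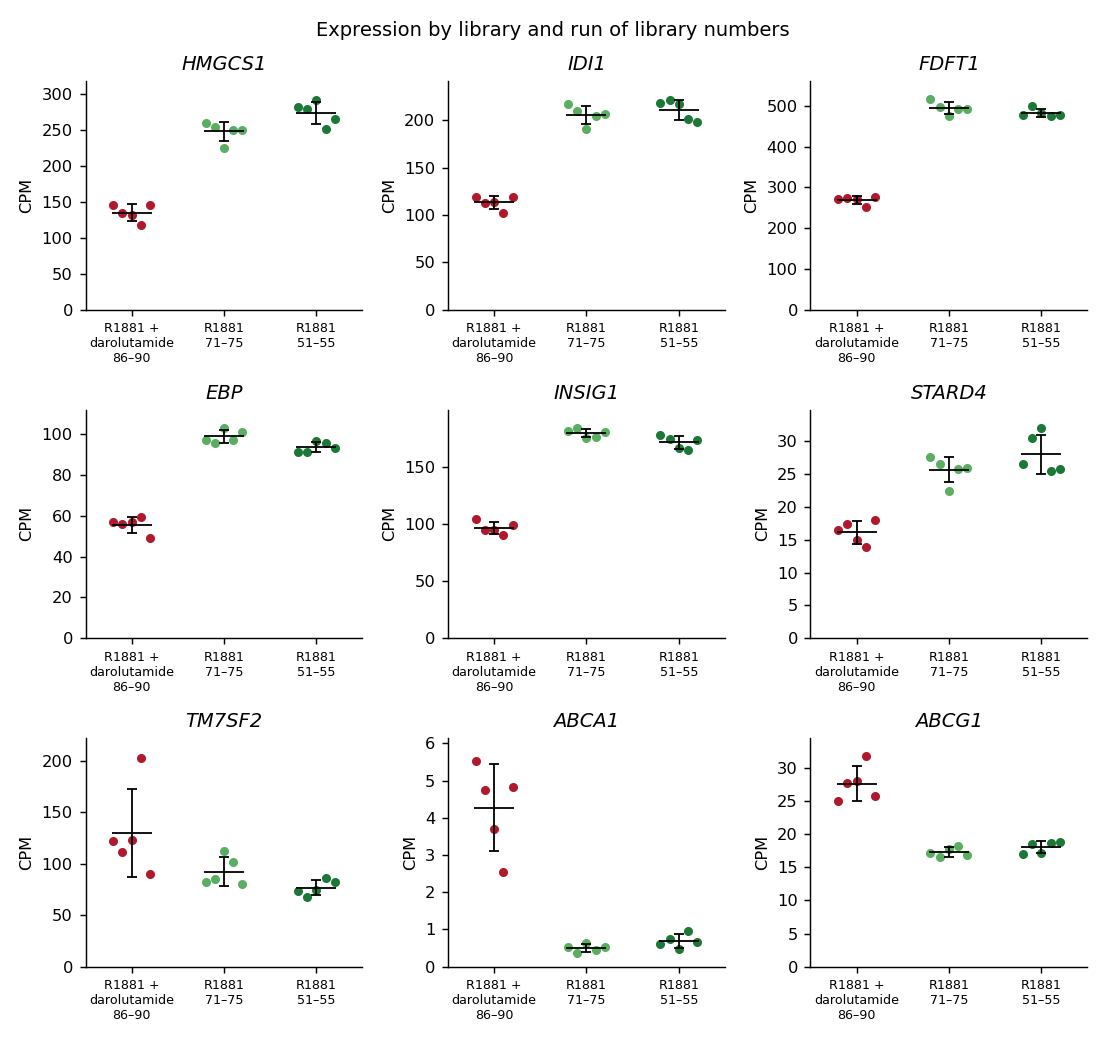
Expression in CPM of 9 of the genes, 1 point per library, by run of library numbers, with the mean and SD of each run (n = 5). HMGCS1 lies between 117 and 146 CPM with darolutamide and between 225 and 291 CPM in the R1881 runs, and ABCA1 between 2.55 and 5.54 CPM and between 0.354 and 0.968 CPM.

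Of the 9 genes that turn lanosterol into cholesterol, 6 fell, 1 rose and 2 did not pass. EBP, the sterol isomerase (chromosome X, 48521799 to 48528716), changed the most among those that fell. Its expression was 56.1, 56.7, 48.9, 59.4 and 57.1 CPM with darolutamide, against 91.2 to 103 CPM (median 96.1) with R1881. It fell by 0.79 on the log2 scale (standard error 0.043, adjusted p = 5.03e-11 from limma). An overlapping gene on the same strand covers 36.4% of its merged exon bases. SC5D, the desaturase that follows EBP, was 136 to 164 CPM with darolutamide and 206 to 248 CPM with R1881 and fell by 0.57 on the log2 scale. DHCR7, the reductase of the final step, was 97.9, 101, 87.7, 139 and 111 CPM with darolutamide, against 129 to 172 CPM (median 148) with R1881. It fell by 0.49 on the log2 scale (adjusted p = 0.000137 from limma), with only replicate 4 above the lowest R1881 library. MSMO1 and NSDHL act one after the other on the methyl groups of the sterol ring. MSMO1 fell by 0.38 (68.9 to 86.6 CPM, against 97.7 to 109 CPM) and NSDHL fell by 0.50 (29.1 to 32.3 CPM, against 39.7 to 47.1 CPM), both on the log2 scale and without overlap. HSD17B7, the ketoreductase that completes this demethylation, did not pass. It was 25.5 to 30.5 CPM with darolutamide and 22.0 to 27.8 CPM with R1881 (log2 fold change 0.12, adjusted p = 0.071 from limma), and 2 pseudogenes are named after it. Without combination replicate 4 or without R1881 replicate 7 it was higher, at 0.15 and 0.14 (adjusted p = 0.0284 and 0.0454 from limma).

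TM7SF2 and LBR both encode sterol reductases that act after the demethylation of lanosterol, LBR also being a receptor of the nuclear lamina. TM7SF2 was the only enzyme of synthesis that rose. It was 111, 122, 89.8, 203 and 123 CPM with darolutamide, against 68.1 to 112 CPM (median 82.1) with R1881. It rose by 0.57 on the log2 scale (standard error 0.144, adjusted p = 0.00326 from limma). Replicates 1 and 3 lay inside the R1881 range and replicate 4 lay far above all other libraries. Its log2 fold change was 0.40 without replicate 4 (adjusted p = 0.00393 from limma), and its call was lost against R1881 libraries 71 to 75 alone (0.44, adjusted p = 0.0771 from limma). LBR was 42.7, 47.6, 47.7, 37.4 and 41.9 CPM with darolutamide, against 43.9 to 56.1 CPM (median 49.5) with R1881. It fell by 0.18 on the log2 scale (adjusted p = 0.0301 from limma), and the call was lost without any 1 of combination replicates 1, 4 and 5 (adjusted p = 0.0629, 0.0869 and 0.0707 from limma), without replicates 3 and 4 together (0.0677), and against R1881 libraries 71 to 75 alone (-0.09, adjusted p = 0.34 from limma). CYP51A1, the demethylase of lanosterol, was counted at only 6 to 64 reads per library. It was 0.479, 0.849, 0.264, 3.02 and 0.542 CPM with darolutamide, against 0.352 to 1.71 CPM with R1881 (log2 fold change -0.02, adjusted p = 0.968 from limma). Other annotated genes on the same strand cover 68.2% of its merged exon bases and 3 pseudogenes carry its name, so its value is uncertain as a level and no change was detectable at this depth.

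Combination replicate 4 stood apart in a set of genes rather than in all, and other libraries also differed in these genes. For 7 genes of synthesis and uptake whose canonical transcripts have a GC content of 56.0% or more, MVD, TM7SF2, MVK, PMVK, LSS, DHCR7 and SCARB1, this library was 0.48 to 1.66 above the median of the other 4 on the log2 scale. For the other 22 genes the difference ran from -0.80 for ABCA1 to 0.25 for ABCG1, apart from CYP51A1 at 1.80 with few reads. R1881 replicate 6 was the highest R1881 library for all 7 genes (112 CPM for TM7SF2 and 161 CPM for LSS). Combination replicate 3 was the lowest combination library for all 7 (89.8 and 65.0 CPM). Without combination replicate 4, 20 of the 29 genes were lower and 4 were higher. Of all 17272 genes, 4781 were then lower and 4096 higher. After each library was corrected for GC content, 21 of the 29 were lower, MVD among them at -0.39 (adjusted p = 0.0036 from limma), and 4 were higher. Of the 13955 genes so corrected, 4438 were lower and 4230 higher.

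**Figure D3:**
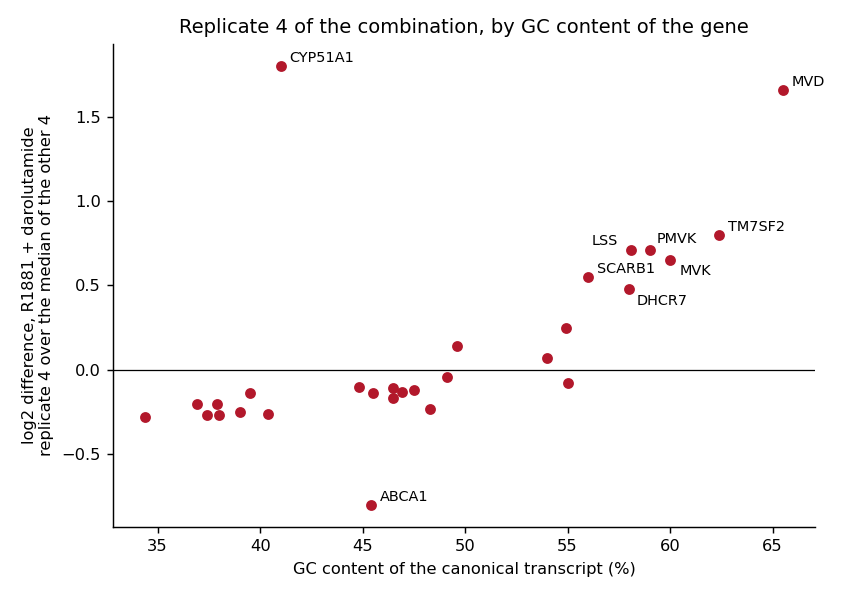
Log2 difference between replicate 4 and the median of the other 4 libraries with darolutamide (vertical axis) by GC content of the canonical transcript in % (horizontal axis), 1 point per gene. The 7 genes from 56.0% upward lie between 0.48 and 1.66, and those under 45% lie between -0.28 and -0.10 except CYP51A1 at 1.80.

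Of the feedback proteins, INSIG1 fell and INSIG2 rose. INSIG1, the endoplasmic reticulum protein that retains SREBP and is itself an SREBP target (chromosome 7, 155297776 to 155310235), was 94.8, 104, 99.1, 90.6 and 94.7 CPM with darolutamide, against 165 to 184 CPM (median 176) with R1881. The log2 fold change was -0.86 (standard error 0.036, adjusted p = 1.1e-12 from limma), with both groups narrow and far apart. INSIG2, a related protein that is not among the 29 genes, changed the other way, at 44.5 ± 3.37 CPM with darolutamide and 23.3 ± 1.46 CPM with R1881 (SD, n = 5 and 10, log2 fold change 0.92, adjusted p = 1.89e-10 from limma).

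Promoters are shown for INSIG1, IDI1 and EBP, which had the smallest p of the 29 genes after FDFT1. The promoter of FDFT1 is not shown. Each line gives the 200 bases before the RefSeq start on GRCh38.p14, read 5′ to 3′ on the gene's strand, with capitals for CCAAT, the motif of NF-Y, and GGGCGG, that of Sp1, on either strand. INSIG1 lies at chr7:155297678-155297877 on the plus strand, IDI1 at chr10:1056705-1056904 on the minus strand and EBP at chrX:48521608-48521807 on the plus strand. The RefSeq starts of INSIG1 and EBP lie inside the GENCODE genes. The IDI1 window, from 1056705, lies upstream of the GENCODE gene given above, whose 5′ end is at 1049119. It thus belongs to another start than that of the GENCODE gene.
INSIG1: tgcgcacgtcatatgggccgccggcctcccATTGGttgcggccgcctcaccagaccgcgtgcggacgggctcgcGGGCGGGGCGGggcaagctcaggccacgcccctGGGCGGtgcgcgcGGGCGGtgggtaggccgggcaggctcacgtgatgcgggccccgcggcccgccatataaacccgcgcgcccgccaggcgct
IDI1: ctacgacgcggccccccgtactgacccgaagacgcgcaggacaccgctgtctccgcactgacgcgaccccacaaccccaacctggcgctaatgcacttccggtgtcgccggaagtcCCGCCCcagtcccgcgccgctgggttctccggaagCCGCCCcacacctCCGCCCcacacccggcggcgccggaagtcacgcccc
EBP: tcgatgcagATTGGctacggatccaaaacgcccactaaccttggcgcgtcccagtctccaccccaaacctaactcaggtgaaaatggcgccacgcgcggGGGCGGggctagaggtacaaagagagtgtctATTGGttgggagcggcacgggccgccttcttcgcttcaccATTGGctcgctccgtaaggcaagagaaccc
EBP held 3 copies of CCAAT and 1 of GGGCGG in this window, INSIG1 held 1 and 4 (2 of them overlapping), and IDI1 held 0 and 3. Over the 250 bases before the start, 24 of the 29 genes had a RefSeq promoter entry. CCAAT was found in 17 of these 24 (70.8%), against 35.7% of the 9968 promoters matched to genes of the table. GGGCGG was found in 21 of 24 (87.5%, against 66.9%). A core of the sterol regulatory element, TCACNCCAC, was found in 0 of 24, against 0.833% of the matched promoters. With so rare a match, its absence from 24 promoters says nothing about these genes. Other forms of the element were not searched. The E-box CACGTG was found in 3 of 24 (ABCA1, INSIG1 and SC5D, against 8.95%) and AGAACA, part of the androgen receptor element, in PMVK alone (against 7.27%). These are matches of letters on both strands in a short window and do not show binding.

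Of the 3 genes of uptake and lysosomal export, 1 fell and 2 did not pass. SCARB1, the receptor that takes up cholesterol esters from high-density lipoprotein, was 56.0, 56.1, 47.8, 82.1 and 66.7 CPM with darolutamide, against 62.4 to 91.6 CPM (median 73.4) with R1881. Its log2 fold change of -0.28 (adjusted p = 0.0311 from limma) was carried by 3 libraries below the R1881 range. The call was lost without any 1 of combination replicates 1, 2 and 3 (adjusted p = 0.0829, 0.0812 and 0.116 from limma) and against R1881 libraries 51 to 55 alone (-0.20, adjusted p = 0.221 from limma). NPC1 and NPC2, which pass cholesterol out of the lysosome, did not pass. NPC1 was 85.5 to 93.0 CPM with darolutamide and 85.1 to 104 CPM with R1881 (log2 fold change -0.05, standard error 0.039), and NPC2 averaged 36.8 CPM in both groups, with SDs of 1.69 and 2.13 CPM (standard error of the log2 fold change 0.047). Summed over the 3 genes, expression was 176.4 to 204.9 CPM with darolutamide and 191.7 to 221.5 CPM with R1881, and the groups overlapped.

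All 3 genes of storage and transfer fell. STARD4, a carrier of sterol between membranes, was 17.4, 16.5, 18.0, 13.9 and 14.9 CPM with darolutamide, against 22.5 to 32.0 CPM (median 26.3) with R1881. It fell by 0.72 on the log2 scale (standard error 0.076, adjusted p = 3.66e-07 from limma). SOAT1, which esterifies cholesterol for storage in droplets, was 77.3 to 88.1 CPM with darolutamide, against 92.7 to 111 CPM with R1881, and fell by 0.28 on the log2 scale. OSBP, the oxysterol-binding protein that carries cholesterol from the endoplasmic reticulum to the Golgi, was 277 to 332 CPM with darolutamide, against 344 to 397 CPM with R1881, and fell by 0.24. Neither group overlapped the other in any of the 3 genes, though the falls of SOAT1 and OSBP were small.

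Both efflux genes among the 29 rose. ABCA1, the pump that loads cholesterol onto apolipoproteins (chromosome 9, 104781006 to 104928155), was 4.75, 5.54, 4.84, 2.55 and 3.71 CPM with darolutamide, against 0.354 to 0.968 CPM (median 0.579) with R1881. The log2 fold change was 2.10 (standard error 0.148, adjusted p = 1.87e-09 from limma), the largest of the 29 genes in size. ABCA1 was nevertheless expressed at a low level, with 7 to 137 reads per library and 0.411 CPM per kilobase with darolutamide against 0.0574 CPM per kilobase with R1881. At such a level the pseudocount of 0.5 sets the size of the change, which was 2.64 with a pseudocount of 0.1, 1.70 with 1 and 2.83 from edgeR on the recovered reads. ABCG1, the pump that passes cholesterol to high-density lipoprotein (chromosome 21, 42199689 to 42297244), was 27.7, 25.0, 25.7, 31.8 and 28.0 CPM with darolutamide, against 16.5 to 18.8 CPM (median 17.5) with R1881. It rose by 0.63 on the log2 scale (standard error 0.055, adjusted p = 3.61e-08 from limma). Every darolutamide library was above every R1881 library for both genes.

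**Figure D4:**
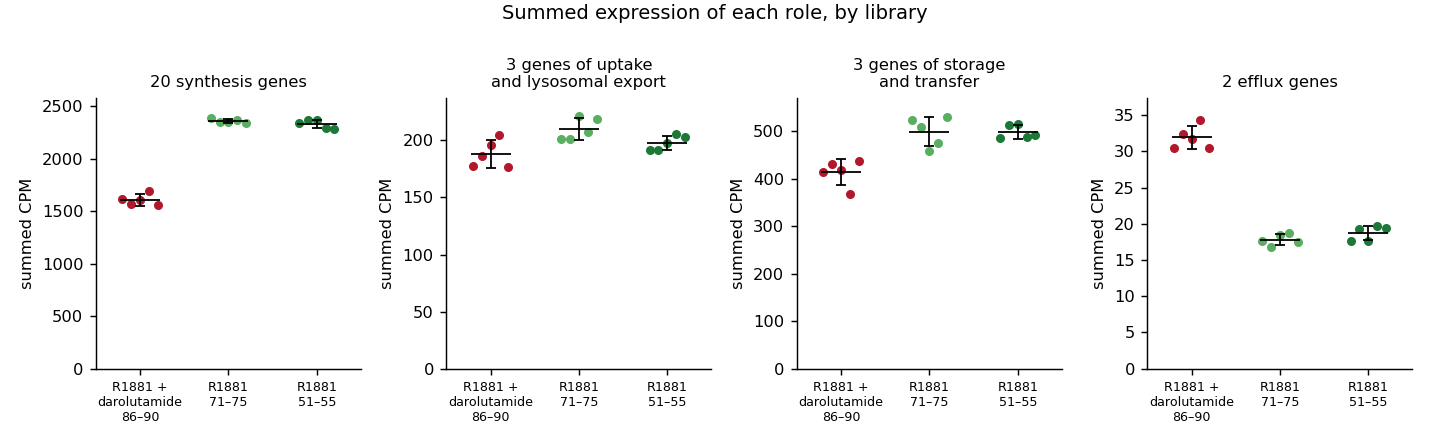
Summed expression in CPM of the genes of each role, 1 point per library, by run of library numbers, with the mean and SD of each run (n = 5). The 20 synthesis genes lie between 1556 and 1698 CPM with darolutamide, below all R1881 libraries, and the 2 efflux genes lie between 30.49 and 34.37 CPM, above all R1881 libraries at 16.84 to 19.64 CPM.

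The R1881 libraries of the 2 runs were compared with each other in the same genes. Between libraries 71 to 75 and libraries 51 to 55, 0 of the 29 genes passed limma's test, where 2.29% of all genes were lower and 0.805% were higher in 71 to 75. At an unadjusted p under 0.05 there were 10, among them HMGCS1 (248 and 274 CPM on average) and TM7SF2 (92.6 and 76.8 CPM). The log2 differences ran from -0.25 for ABCA1 to 0.45 for MVD, with a median of 0.02. Without R1881 replicate 1 or without R1881 replicate 3, 2 genes passed. The shares of all genes at the unadjusted threshold and with a library left out are not given here. These counts therefore cannot be set against those of all genes.

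Of 79 other genes of sterol handling in 8 further lists, 68 were in the table, with 17 lower (25.0%), 12 higher (17.6%) and 39 that did not pass. These shares lie near the 23.7% lower and 22.8% higher of all genes. In this fit the counts of the lists therefore show nothing particular to sterol handling, and the values below describe single genes. The counts depend on combination replicate 4. Without it, 26 of the 68 were lower and 13 were higher, with 4781 of all 17272 genes lower and 4096 higher. Among other sterol enzymes, 2 of 7 fell and 2 rose. ACAT1, the mitochondrial thiolase, rose by 0.31. In the non-sterol branch 5 of 13 fell and 1 rose. The gene that rose was PDSS2, a subunit of the synthase of the ubiquinone side chain, at 0.46. Of 9 genes of lipoprotein receptors and the lysosome, 3 fell and 2 rose. VLDLR, the receptor of very-low-density lipoprotein, fell to 18.6 to 22.0 CPM with darolutamide, against 41.6 to 53.8 CPM with R1881 (log2 fold change -1.22, adjusted p = 2.69e-11 from limma). LRP8, a related receptor, had a log2 fold change of -0.28.

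Of 16 sterol transfer proteins, 4 fell and 2 rose, again with 23.7% of all genes lower and 22.8% higher. GRAMD1C, which moves cholesterol from the plasma membrane inward, was 24.0 to 29.7 CPM with darolutamide, against 8.15 to 9.54 CPM with R1881 (log2 fold change 1.61, adjusted p = 2.2e-13 from limma), while OSBPL2 fell by 0.32. Of 9 genes of sterol sensing and turnover none fell and 2 rose, INSIG2 given above and ERLIN2, a scaffold of protein degradation in the endoplasmic reticulum, at 0.19. In the list of LXR and other efflux genes 2 of 9 fell and 1 rose. That riser was MYLIP, a ubiquitin ligase of lipoprotein receptors and an LXR target, at 0.33 (17.9 to 20.2 CPM, against 13.6 to 16.8 CPM), and ABCA5, a related transporter, fell by 0.43. The receptors NR1H2 and NR1H3 themselves did not pass (log2 fold changes of -0.14 and -0.06, standard errors 0.265 and 0.114, adjusted p = 0.71 and 0.712 from limma). NR1H2 ran from 9.55 to 49.6 CPM with darolutamide and from 15.6 to 38.4 CPM with R1881, so its change was poorly measured. Of 3 oxysterol enzymes measured, 1 rose, CYP39A1, a hydroxylase of oxysterols, at 1.17 (13.4 to 16.1 CPM, against 5.22 to 7.16 CPM). In the ester cycle NCEH1, an ester hydrolase, rose by 0.22 and PLIN3, a droplet coat protein, fell by 0.32.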

How the data were processed

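RNA from LNCaP cells was sequenced as single-end reads of 50 bases. Per the labels, the authors used STAR for alignment (GRCh38) and featureCounts for the reads per gene, and deposited what they call CPM. Tool versions, gene annotation, strand setting and gene filter are not given in the sources used here. The deposited values are a scaled signal, whole reads divided by 1 factor per library (100% of values whole within 0.001 reads). Groups follow the sample labels, while the study's methods swap the sizes of both groups and give a micromolar dose of R1881 where the labels give a nanomolar one. The members and lists were chosen with earlier results of these data known. Several other genes of the pathway are not reported here.

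Log2(value + 0.5) of all 17272 genes was fitted with limma 3.58.1 (trend, two-sided, Benjamini-Hochberg, no filter). The scripts were tested on simulated data. On the recovered reads edgeR called 3943 genes lower and 4106 higher. Alternatives were edgeR 4.0.16 and DESeq2 1.42.0 on the recovered reads, other pseudocounts, a minimum mean of 1, library totals, TMM, the replicate number as a block, either R1881 run alone, and libraries left out. A term for the runs and a GC correction (spline with 5 degrees of freedom, 13955 genes) were added after the data had been seen. Same-numbered libraries were not taken as pairs. All 29 genes are named, and of each further list the 2 genes of smallest p that passed, apart from those not reported. Genes named beyond this rule (LXR receptors, control and marker genes) were chosen after their values were seen. Positions and transcript lengths are from GENCODE version 44, and promoters from RefSeq.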

Additional observations from a re-analysis of the deposited data

Results flagged for a closer look

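In 58 groups of values (29 genes, each with darolutamide and with R1881), 4 had a single library set well apart. Chance alone flags about 1 in 20 such groups. All 4 were combination replicate 4. It had 24.0 CPM for MVD, against 4.53 to 7.56 CPM in the other combination libraries, and 3.02 CPM for CYP51A1, against 0.264 to 0.849 CPM. It was lower for GGPS1, at 74.0 CPM, against 86.2 to 90.0 CPM, and for FDFT1, at 253 CPM, against 271 to 277 CPM. The log2 fold change without this library was -0.71 for MVD and is given beside that gene above.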

How the results depend on the processing

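Of 811 values of the 29 genes under 28 alternatives, 790 kept their call, 14 lost it, 7 gained it and none of the called ones changed direction. In 23 genes the call held throughout. The counts of genes lower and higher were 18 to 21 and 2 to 4. With each library left out in turn they were 18 to 20 and 3 to 4. Over all genes, 4098 were lower and 3946 higher, and with scaling by library totals 3030 and 5326, when LBR and SCARB1 lost their calls (adjusted p = 0.178 and 0.0985 from limma) and HSD17B7 was higher (0.19). Leaving out 1 library gave 3723 to 4781 lower and 3495 to 4096 higher. With the replicate number as a block, 19 of the 29 genes were lower and 3 higher, LBR being lost (adjusted p = 0.096 from limma), and no other call of the 29 changed. All genes then gave 3156 lower and 3084 higher. The libraries share only a number: deviations of same-numbered libraries correlated by -0.139 to 0.335 and 1 of 5 was closest to its own. Between the R1881 runs, 1 of the 29 genes passed with library totals and 0 to 2 with 1 library left out. The shares of all genes in these settings are not given here. In the further lists, 19 genes were higher with library totals and 27 were lower after GC correction, and 15 to 26 were lower and 12 to 14 higher with 1 library left out. GC correction gave 4438 lower and 4230 higher over the 13955 genes it covered. The cause of these shifts was not tested. CYP51A1 had no value with a minimum mean of 1, and its 6 to 64 reads limit what can be seen.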
